A study of Homo sapiens with 6 samples.

Results

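The chaperone genes of the cytosol and mitochondria were examined in 3 stable lines of HCT116, an established human colon carcinoma cell line. Members were all gene rows whose symbol names an HSP90 of the cytosol (HSP90AA1 or HSP90AB1), an HSP70 (HSPA genes), the HSP110 gene HSPH1, a small heat shock protein (HSPB genes), the mitochondrial chaperonin (HSPD1 and HSPE1), a subunit of the cytosolic chaperonin CCT (TCP1 and the CCT genes) or a J-domain protein (DNAJA, DNAJB and DNAJC genes). The endoplasmic reticulum genes HSPA5, DNAJB9 and DNAJC3 were left out by the same rule. It used names and no measured value, and it found 75 of 20030 gene rows. They comprised 2 HSP90, 13 HSP70, 1 HSP110, 8 small heat shock protein, 2 mitochondrial chaperonin, 8 CCT, 4 DNAJA, 12 DNAJB and 25 DNAJC genes. Some members lie outside the compartments that the name gives. HSPA13, DNAJB11, DNAJC1, DNAJC10 and DNAJC25 encode proteins of the endoplasmic reticulum, and HSPB11 encodes a subunit of the intraflagellar transport machinery of cilia.

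The lines were TEAD4 K178R, over-expressing a mutant TEAD4 that in the usual notation has arginine in place of a lysine, wild type TEAD4, over-expressing the unchanged protein, and a line labelled control. Total RNA of each line went into 2 TruSeq libraries. TEAD4 is a DNA-binding transcription factor that recruits the Hippo pathway coactivators YAP1 and TAZ. The promoter that drives TEAD4, what the control line carries and whether a line is 1 clone were not given in the labels, and all lines share the HCT116 background. For wild type library 2 the genotype field reads TEAD5, while its title names wild type TEAD4, by which it was grouped. The labels do not say whether the libraries of a line stem from separate cultures. The p-values therefore rest on the spread between libraries, which may be technical only.

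Chaperones bind unfolded or partly folded proteins and help them to fold, assemble, cross membranes or be degraded. HSP70 proteins bind short exposed stretches of a client in a cycle driven by ATP, J-domain proteins bring them clients and start ATP hydrolysis, and HSP110 proteins release the nucleotide. HSP90 acts late, on kinases, steroid receptors and other nearly folded clients, while CCT encloses actin, tubulin and other proteins in a ring. Under stress, heat shock factor 1 (HSF1) raises transcription of many of these genes through heat shock elements, repeats of the letters GAA and their complement TTC in alternating orientation.

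Values are FPKM, fragments scaled by the length of the transcript and by the mapped total, which compare levels between genes per length. The over-expressed gene was measured first. TEAD4 stood at 71.2 and 72.3 FPKM in the K178R libraries, 86.4 and 84.4 FPKM in the wild type libraries and 16.6 and 17.5 FPKM in the control libraries, so both TEAD4 lines carried more TEAD4 RNA than the control line, and the K178R line less than the wild type line (log2 -0.25, SE 0.03, limma adjusted p = 0.00131). FPKM summed over all genes lay between 283205 and 305342 per library. Of 8 epithelial marker genes, 6 reached 0.5 FPKM in at least 1 library, with CDX1 at 0 in all 6 libraries and VIL1 near 0. The epithelial sum was 2851 to 2884 FPKM in the K178R libraries, 1796 to 1850 FPKM in the wild type libraries and 2634 to 2681 FPKM in the control libraries. KRT8 averaged 1381 FPKM with K178R, 770 FPKM with wild type TEAD4 and 1298 FPKM in control, and KRT18 averaged 890 FPKM with K178R, 457 FPKM with wild type TEAD4 and 691 FPKM in control. EPCAM differed less (152 FPKM with K178R, 147 FPKM with wild type TEAD4 and 152 FPKM in control), and CDX2 was highest with wild type TEAD4 (3.21 FPKM with K178R, 4.15 FPKM with wild type TEAD4 and 3.29 FPKM in control). Among markers of other cell types, 1 of 6 fibroblast genes (COL1A1), 1 of 6 leukocyte genes (CD68) and 0 of 5 endothelial genes reached 0.5 FPKM. COL1A2, DCN, LUM and CD3E were listed at 0 throughout. Fibroblast sums were 1.73 to 1.88 FPKM with K178R, 3.64 to 3.78 FPKM with wild type TEAD4 and 1.53 to 1.76 FPKM in control. Leukocyte sums were 1.28 to 1.29 FPKM with K178R, 2.71 to 3.07 FPKM with wild type TEAD4 and 3.23 to 3.63 FPKM in control. The part of these marker changes in the chaperone results was not tested.

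Chaperone genes were a small share of the transcriptome. They made up 2.31% and 2.29% of all FPKM in the K178R libraries, 2.22% and 2.20% in the wild type libraries and 2.39% in both control libraries. The sum of their FPKM was 6533 ± 1.97 with K178R, 6706 ± 97.2 with wild type TEAD4 and 7031 ± 2.64 in control (SD, n = 2 each). HSP90AB1, HSPA8, HSP90AA1, HSPD1, HSPE1 and CCT3 held 59.2% of it in the control line. At the other end, 6 members were listed at 0 in every library: HSPB2, HSPB3, HSPB9, DNAJB3, DNAJB7 and DNAJB8. Another 7 stayed below the level needed for testing, at least 0.5 FPKM in at least 2 libraries: HSPA12B, HSPA1L, HSPA6, HSPB6, HSPB7, DNAJB13 and DNAJC28. The strictly stress-inducible HSP70 gene HSPA6 was among them and did not exceed 0.0604 FPKM. The other 62 members entered the test with 11445 genes in all. Replicate libraries lay close together, the median absolute log2 difference over 59 members at 1 FPKM or more being 0.028 with K178R, 0.037 with wild type TEAD4 and 0.033 in control.

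The first question was what K178R and wild type TEAD4 each changed. Log2 changes are of FPKM + 1, which understates changes of low genes, and a gene was called when its limma adjusted p over all tested genes was under 0.05. Against control, 2 members were higher and 18 lower in the K178R line, 32.3% of those tested. Of all tested genes 22.8% were called, 11.7% higher and 11.1% lower. The median log2 change of the members was -0.06, against 0.00 over all genes. With wild type TEAD4, 17 members were higher and 13 lower, 48.4% of those tested. The background was 49.9%, with 37.6% higher and 12.2% lower, and the median log2 change was 0.02 for members and 0.09 for all genes. The balance of higher and lower calls depended on scaling. After median-of-ratios scaling the wild type split was 10 higher and 20 lower among members, and 2943 higher and 2416 lower among all genes. After rescaling to TPM 14 members were higher and 17 lower, beside 3529 higher (30.8%) and 1852 lower (16.2%) of all genes. In the K178R line median-of-ratios scaling left 2 members higher and 18 lower, beside 11.2% higher and 11.6% lower of all genes. TPM gave 4 members higher and 10 lower, beside 17.5% higher and 7.15% lower of all genes. With the control libraries averaged as 1 sample, 0 members were higher and 9 lower in the K178R line. Both comparisons use the same control libraries.

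**Figure D1:**
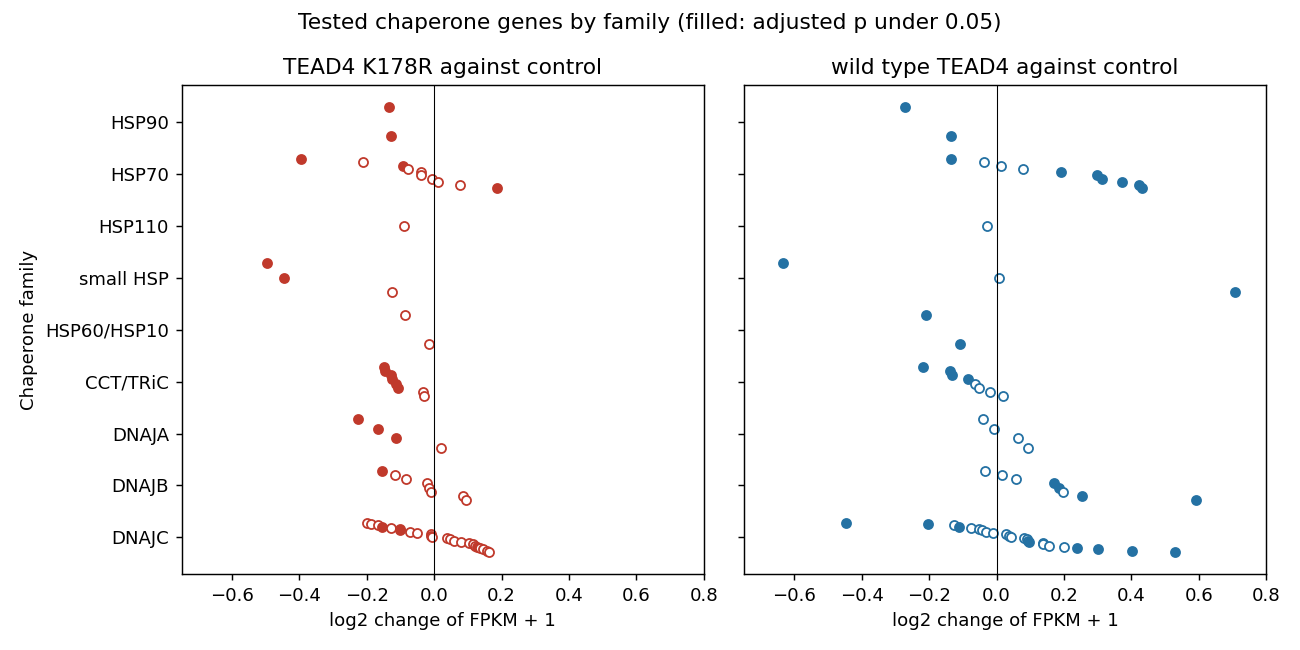
Each point is 1 of the 62 tested chaperone genes, placed by its log2 change of FPKM + 1 against control (horizontal axis) within its family (rows), with TEAD4 K178R at left and wild type TEAD4 at right. Filled points passed the limma adjusted p of 0.05; in the K178R panel 18 filled points lie left of zero and 2 right of it, in the wild type panel 13 left and 17 right.

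Of 10 tested HSP70 genes, 1 was higher and 2 lower with K178R, and 6 were higher and 1 lower with wild type TEAD4. That was 30% called with K178R and 70% with wild type TEAD4, beside 22.8% and 49.9% of all tested genes. The family sum was 1114 ± 6.49 FPKM with K178R, 1392 ± 23.0 FPKM with wild type TEAD4 and 1179.9 ± 12.9 FPKM in control (SD, n = 2 each), and HSPA8 held most of it. HSPA1B, a stress-inducible cytosolic HSP70 encoded at chromosome 6, positions 31827735 to 31830255, plus strand (GRCh38, GENCODE release 29), read 37.4 and 36.0 FPKM in the K178R libraries, 65.2 and 65.6 FPKM in the wild type libraries and 49.2 and 47.8 FPKM in the control libraries. The 3 pairs did not overlap, with K178R lowest and wild type TEAD4 highest. HSPA1B fell in the K178R line (log2 -0.39, SE 0.03, adjusted p = 0.000183) and rose with wild type TEAD4 (log2 0.42, SE 0.03, adjusted p = 7.73e-05). Its near-identical neighbour HSPA1A read only 0.769 and 0.361 FPKM with K178R, 0.916 and 0.883 FPKM with wild type TEAD4 and 0.759 and 0.839 FPKM in control, and was not called. Without K178R library 1 it was called lower with K178R (adjusted p = 0.0277 against control and 0.00831 against wild type TEAD4). Since 72.6% of the windows of 50 bases in the HSPA1A transcript also occur in HSPA1B, reads of these genes cannot be told apart over most of their length, and how the authors' counting split them is not stated. Their summed level was 38.1 and 36.4 FPKM with K178R, 66.1 and 66.5 FPKM with wild type TEAD4 and 49.9 and 48.7 FPKM in control. HSPA1B also shares 36.5% of its exonic bases with the annotated same-strand gene AL671762.1.

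HSPA8, the constitutive HSP70 that also uncoats clathrin vesicles, lies on the minus strand of chromosome 11 from 123057489 to 123063230. It read 784 and 777 FPKM with K178R, 1048 and 1022 FPKM with wild type TEAD4 and 842 and 823 FPKM in control. Again the pairs did not overlap and stood in the order of HSPA1B. HSPA8 rose with wild type TEAD4 (log2 0.31, SE 0.02, adjusted p = 7.85e-05). Its fall in the K178R line was small (log2 -0.09, SE 0.02, adjusted p = 0.0257), and the call ended in 7 of 14 alternatives, among them leaving out either K178R or either control library, with adjusted p up to 0.156. GENCODE annotates 17 HSPA8 pseudogenes, so part of its reads may match several places.

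HSPA4L, an HSP110-type nucleotide exchange factor, read 6.55 and 6.42 FPKM with K178R, 9.51 and 9.82 FPKM with wild type TEAD4 and 6.90 FPKM in both control libraries. The wild type libraries stood above the other 4, and the gene rose with wild type TEAD4 (log2 0.43, SE 0.04, adjusted p = 0.000234) without a call in K178R (log2 -0.08). HSPA2, an HSP70 best known from the testis, was low, at 1.01 and 1.07 FPKM with K178R, 1.48 and 1.77 FPKM with wild type TEAD4 and 1.06 and 0.994 FPKM in control, and was called higher with wild type TEAD4 (log2 0.37, adjusted p = 0.00429) and not with K178R. HSPA13, in the endoplasmic reticulum, was called higher in both TEAD4 lines (log2 0.19 with K178R, 0.30 with wild type TEAD4), and its K178R call ended with the control libraries averaged and without K178R library 2 or control library 1 (adjusted p up to 0.0716). HSPA12A, a distant HSP70 relative, was called higher with wild type TEAD4 (log2 0.19, adjusted p = 0.0306), a call that ended in 7 of 14 alternatives, among them median-of-ratios scaling (adjusted p = 0.144) and leaving out wild type library 2 or either control library (adjusted p up to 0.151). The HSP110 genes with the higher levels did not pass in either line. HSPA4 averaged 86.6 FPKM with K178R, 89.8 FPKM with wild type TEAD4 and 89.0 FPKM in control, and HSPH1 averaged 48.7 FPKM with K178R, 50.8 FPKM with wild type TEAD4 and 51.9 FPKM in control. After median-of-ratios scaling HSPH1 was called lower with wild type TEAD4 (log2 -0.12, adjusted p = 0.0178).

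Promoters are shown for HSPA1B, HSPA8 and DNAJB1, which were called in opposite directions against control in the TEAD4 lines, and for HSPB1, which was lower in both. The sequences are from RefSeq (GRCh38.p14), the 250 bases before the annotated start, read on the gene's strand, and capitals mark every pair of adjoining heat shock units of alternating orientation (GAANNTTC or TTCNNGAA). They cover HSPA1B at chr6:31827488-31827737 on the plus strand, HSPA8 at chr11:123062137-123062386 on the minus strand, DNAJB1 at chr19:14529272-14529521 on the minus strand and HSPB1 at chr7:76302423-76302672 on the plus strand.
HSPA1B: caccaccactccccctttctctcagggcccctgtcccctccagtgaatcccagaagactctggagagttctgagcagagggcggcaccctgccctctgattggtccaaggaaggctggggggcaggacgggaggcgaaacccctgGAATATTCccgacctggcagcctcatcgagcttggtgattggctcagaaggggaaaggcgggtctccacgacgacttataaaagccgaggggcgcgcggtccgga
HSPA8: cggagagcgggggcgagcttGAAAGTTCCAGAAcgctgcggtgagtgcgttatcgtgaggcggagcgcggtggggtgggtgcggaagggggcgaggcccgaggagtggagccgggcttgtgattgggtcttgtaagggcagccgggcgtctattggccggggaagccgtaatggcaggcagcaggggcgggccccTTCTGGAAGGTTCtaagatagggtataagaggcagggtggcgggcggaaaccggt
DNAJB1: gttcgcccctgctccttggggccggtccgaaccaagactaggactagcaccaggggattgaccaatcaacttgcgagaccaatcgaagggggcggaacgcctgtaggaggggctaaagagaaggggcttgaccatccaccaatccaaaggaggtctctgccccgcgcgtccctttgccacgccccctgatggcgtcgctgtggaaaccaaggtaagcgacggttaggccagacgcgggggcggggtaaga
HSPB1: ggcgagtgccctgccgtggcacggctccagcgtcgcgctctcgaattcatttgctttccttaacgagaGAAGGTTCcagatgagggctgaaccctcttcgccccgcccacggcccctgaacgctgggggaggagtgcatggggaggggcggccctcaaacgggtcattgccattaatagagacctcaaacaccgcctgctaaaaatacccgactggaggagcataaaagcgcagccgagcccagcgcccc
The HSPA1B window holds 1 such pair, starting 105 bases before the start, and the HSPB1 window 1, starting 182 bases before it. The DNAJB1 window holds none. It lies near the upstream end of the annotated span of that gene (14514770 to 14529770), and which start is used in these cells was not tested. Only 1 annotated start per gene was searched here and in the shares below, so a gene with further starts may hold pairs elsewhere. HSPA8 holds 2 runs of 3 units (GAANNTTCNNGAA on either strand), each of which contains 2 overlapping pairs. A RefSeq promoter, 250 bases before to 50 after the start, matched 66 members. The run of 3 units occurred in 4 of them (6.06%), those of HSPA6, HSPA8, DNAJA1 and DNAJB6, and in 0.487% of all 27305 promoters. A pair, searched for after the counts of the longer run were known, occurred in 16 of the 66 (24.2%) and in 13.7% of all promoters, both strands counted. The letters GGAATG, the core of the TEAD binding motif, occurred in 3 of 66 (4.55%) and in 14.05% of all promoters, and CCAAT in 37.9% and 35.7%. These are matches of letters in a short window, and binding was not measured.

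J-domain partners of HSP70 varied by class. DNAJB1, the J-domain partner of stress-induced HSP70, lies on the minus strand of chromosome 19 from 14514770 to 14529770. It read 43.0 and 43.2 FPKM with K178R, 54.8 and 53.8 FPKM with wild type TEAD4 and 49.2 and 47.0 FPKM in control, and the pairs did not overlap. It fell in the K178R line (log2 -0.16, SE 0.03, adjusted p = 0.0122) and rose with wild type TEAD4 (log2 0.17, SE 0.03, adjusted p = 0.00346). The K178R call ended when either K178R library or control library 1 was left out (adjusted p up to 0.0758), and the wild type call after median-of-ratios scaling (adjusted p = 0.0615). DNAJB4, a close relative of DNAJB1, read 6.39 and 5.83 FPKM with K178R, 9.67 and 9.95 FPKM with wild type TEAD4 and 6.32 and 6.04 FPKM in control. The K178R and control libraries overlapped, and the wild type libraries stood above both (log2 0.59, SE 0.05, adjusted p = 0.000174). Of the 8 tested DNAJB genes, 1 was lower with K178R, 12.5% beside 11.1% lower of all tested genes. With wild type TEAD4, 4 were higher and 0 lower, 50% beside 37.6% higher of all tested genes. The 4 included DNAJB2 (log2 0.25) and DNAJB6 (log2 0.18). The DNAJB2 call ended in 7 of 14 alternatives, also without wild type library 1 or either control library (adjusted p up to 0.2). After median-of-ratios scaling 1 DNAJB gene was called higher with wild type TEAD4, DNAJB4.

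DNAJA genes encode J-domain proteins of the class closest to the bacterial DnaJ. DNAJA1, of the cytosol, read 122 and 119 FPKM with K178R, 139 and 135 FPKM with wild type TEAD4 and 141 FPKM in both control libraries. The K178R libraries were below the other 4, and the gene fell in that line (log2 -0.23, SE 0.03, adjusted p = 0.00143) without a call with wild type TEAD4 (log2 -0.04). After median-of-ratios and TPM scaling DNAJA1 was called lower with wild type TEAD4 too (log2 -0.13 and -0.09, adjusted p = 0.00645 and 0.0338). Its mitochondrial relative DNAJA3 (log2 -0.11) and DNAJA4 (log2 -0.17) were also called lower with K178R. Both of these calls ended with the control libraries averaged (adjusted p = 0.117 and 0.122), after TPM rescaling and without K178R library 1 or either control library, and that of DNAJA3 also without K178R library 2 (adjusted p up to 0.161). DNAJA2 was not called in any comparison (33.7 FPKM with K178R, 35.5 FPKM with wild type TEAD4 and 33.2 FPKM in control), though without wild type library 2 it was called higher with wild type TEAD4 (adjusted p = 0.0419).

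Of the 24 tested DNAJC genes, which share only the J domain, 1 was called higher and 2 lower with K178R, 12.5% beside 22.8% of all tested genes. With wild type TEAD4, 6 were higher and 3 lower, 37.5% beside 49.9% of all tested genes. After median-of-ratios scaling 3 were higher and 4 lower with wild type TEAD4. DNAJC9, which acts with HSP70 on histones, read 37.6 and 40.0 FPKM with K178R, 32.0 and 31.0 FPKM with wild type TEAD4 and 43.4 and 43.2 FPKM in control. The wild type libraries were lowest and the control libraries highest, and the gene fell with wild type TEAD4 (log2 -0.45, SE 0.04, adjusted p = 0.000124). In the K178R line its call (log2 -0.15, adjusted p = 0.0238) ended with the control libraries averaged (adjusted p = 0.107), after TPM rescaling and without K178R library 1 or either control library (adjusted p up to 0.116). DNAJC9 shares 949 exonic bases with FAM149B1 on the opposite strand, and whether the authors' values use strand is not stated. DNAJC2, which recruits HSP70 to the ribosome, fell with wild type TEAD4 (log2 -0.20, adjusted p = 0.00308), averaging 21.6 FPKM with K178R, 17.8 FPKM with wild type TEAD4 and 20.7 FPKM in control. DNAJC22 read 8.97 and 8.45 FPKM with K178R, 10.8 and 10.1 FPKM with wild type TEAD4 and 7.72 and 7.62 FPKM in control, and rose with wild type TEAD4 (log2 0.40, adjusted p = 0.000606). Against control its K178R value missed the threshold (log2 0.16, adjusted p = 0.0502), and it passed in 4 of 14 alternatives. DNAJC14 read 18.8 and 18.6 FPKM with K178R, 18.9 and 18.7 FPKM with wild type TEAD4 and 16.9 and 17.1 FPKM in control, and was called higher in both (log2 0.13 and 0.14), though its K178R call ended without any 1 of the K178R or control libraries (adjusted p up to 0.118), and its wild type call without control library 1 and after median-of-ratios scaling (adjusted p up to 0.24). It overlaps ORMDL2 on the opposite strand over 920 exonic bases. DNAJC6, auxilin, which works with HSPA8 on clathrin, was called higher with wild type TEAD4 (log2 0.30, adjusted p = 0.00664) at 1.96 FPKM with K178R, 2.77 FPKM with wild type TEAD4 and 2.06 FPKM in control. DNAJC4 (log2 0.53, adjusted p = 0.0148), which shares 297 exonic bases with NUDT22, lost its call when control library 2 was left out (adjusted p = 0.0895), and also without wild type library 2 and in 2 other alternatives.

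HSP90 and HSPB1 were lower in both TEAD4 lines. HSP90AB1, the constitutive cytosolic HSP90 on chromosome 6 from 44246166 to 44253888, read 953 and 950.1 FPKM with K178R, 871 and 858 FPKM with wild type TEAD4 and 1052 and 1034 FPKM in control. The pairs did not overlap, wild type TEAD4 being lowest. HSP90AB1 fell with K178R (log2 -0.13, SE 0.02, adjusted p = 0.00417) and with wild type TEAD4 (log2 -0.27, SE 0.02, adjusted p = 9.14e-05). HSP90AA1, the more stress-inducible of the pair, read 687 and 694 FPKM with K178R, 696 and 679 FPKM with wild type TEAD4 and 755 and 754 FPKM in control. The TEAD4 lines overlapped each other and lay below control (log2 -0.13 in both, adjusted p = 0.00605 with K178R and 0.00196 with wild type TEAD4). The calls of both HSP90 genes held in all 14 alternatives against control.

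HSPB1, which encodes the small heat shock protein HSP27, lies on chromosome 7 from 76302544 to 76304295. It read 174 and 189 FPKM with K178R, 152 and 167 FPKM with wild type TEAD4 and 249 and 246 FPKM in control. All 4 TEAD4 libraries were below both control libraries, with ratios of mean FPKM to control of 0.734 with K178R and 0.644 with wild type TEAD4. HSPB1 fell in both lines (log2 -0.45, SE 0.05, adjusted p = 0.00131 with K178R, and log2 -0.63, SE 0.05, adjusted p = 0.000134 with wild type TEAD4). HSPB8, which forms a complex with the co-chaperone BAG3, read 2.08 and 1.65 FPKM with K178R, 4.31 and 3.86 FPKM with wild type TEAD4 and 2.42 and 1.83 FPKM in control. It rose in the wild type line at 1.92 times the control mean (log2 0.71, SE 0.11, adjusted p = 0.00171), while the K178R and control libraries overlapped. HSPB11, the ciliary transport subunit, read 22.0 and 22.9 FPKM with K178R, 31.6 and 32.9 FPKM with wild type TEAD4 and 34.3 and 29.9 FPKM in control. The K178R libraries were below the other 4, and the gene fell in that line (log2 -0.50, SE 0.06, adjusted p = 0.00166), while the wild type and control libraries overlapped (log2 0.01, adjusted p = 0.928).

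**Figure D2:**
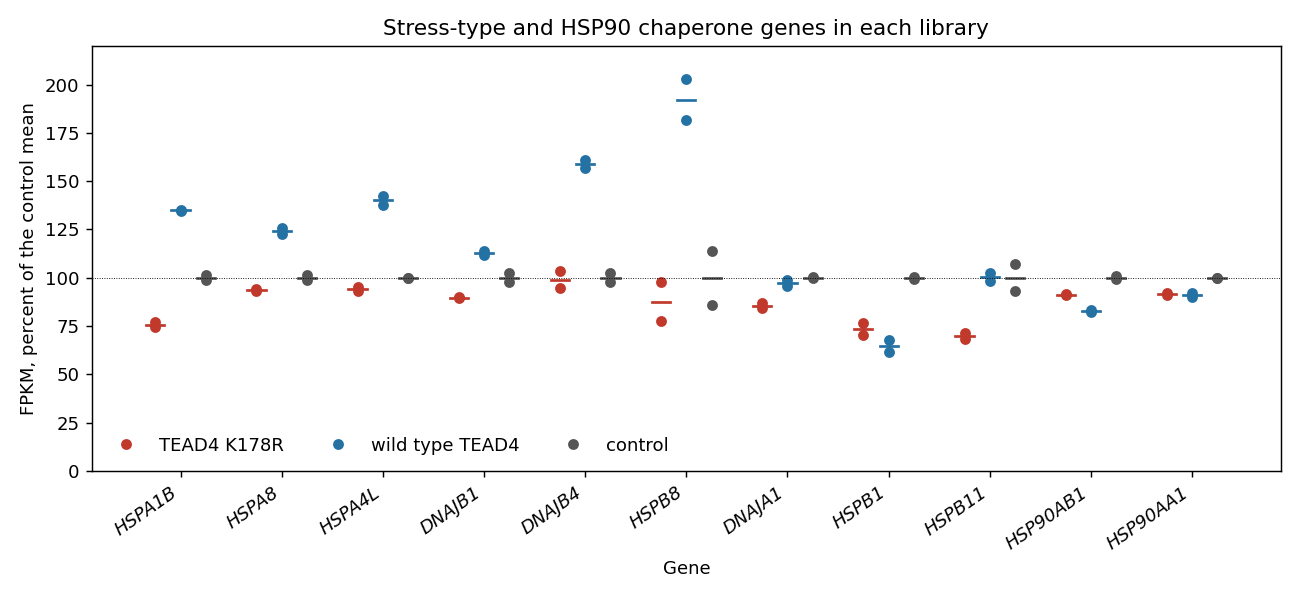
FPKM of 11 chaperone genes in each library as a percent of the mean of the control libraries (vertical axis), with TEAD4 K178R, wild type TEAD4 and control from left to right within each gene. Points are libraries, short bars the mean of 2; HSPA1B, HSPA8 and DNAJB1 have K178R below and wild type TEAD4 above the control line at 100, whereas HSPB1, HSP90AB1 and HSP90AA1 have both below it.

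The 8 subunits of CCT assemble into rings with 1 copy of each subunit. Every subunit lay below both control libraries in both K178R libraries in the deposited FPKM, as did 31 of all 62 tested members, these 8 included. The share of all tested genes that did so is not given here. After TPM rescaling CCT2 and CCT6A turned to log2 0.02 and 0.01. In the main test 6 of 8 were called lower: TCP1, CCT3, CCT4, CCT5, CCT7 and CCT8, with log2 changes of -0.11 to -0.15. CCT2 (log2 -0.03) and CCT6A (log2 -0.03) were not called. The 6 called were 75% of the subunits, beside 11.1% of all tested genes called lower with K178R. That share of all tested genes was 7.15% after TPM rescaling. The changes were small against the sum of the subunits, 1676 ± 3.04 FPKM with K178R, 1709.8 ± 23.3 FPKM with wild type TEAD4 and 1802 ± 14.5 FPKM in control (SD, n = 2 each). With the control libraries averaged 2 subunits were called lower, after TPM rescaling 3, and with 1 library left out at a time 2 to 6. Leaving out control library 1 ended the calls of TCP1, CCT4, CCT5 and CCT8, control library 2 those of TCP1, CCT3, CCT4 and CCT8, K178R library 1 those of TCP1, CCT3 and CCT4, and K178R library 2 those of TCP1, CCT3, CCT4 and CCT8 (adjusted p up to 0.097). CCT7 was called lower with K178R in all 14 alternatives (log2 -0.15, SE 0.02, adjusted p = 0.00298), at 205 and 206 FPKM with K178R, 226 and 225 FPKM with wild type TEAD4 and 229.6 and 227 FPKM in control.

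In the wild type line 4 subunits were called lower, TCP1, CCT2, CCT5 and CCT6A, and 7 after median-of-ratios scaling. The 4 were 50% of the subunits. Of all tested genes 12.2% were called lower in that line, and 21.1% after that scaling. The CCT6A call ended without wild type library 2 or control library 2 and with the control libraries averaged (adjusted p up to 0.0834). CCT5 read 142 FPKM in both K178R libraries, 135 and 132 FPKM with wild type TEAD4 and 156 and 155 FPKM in control, with no overlap, and fell in both lines (log2 -0.13, adjusted p = 0.00779 with K178R, and log2 -0.22, adjusted p = 0.000345 with wild type TEAD4). Its K178R call also ended with the control libraries averaged (adjusted p = 0.0521). CCT3 read 297 and 300.0 FPKM with K178R, 331 and 329 FPKM with wild type TEAD4 and 318 and 333 FPKM in control. The wild type libraries lay within the control range and the K178R libraries below it. CCT5 had the lowest and CCT3 the highest level per length in every library, and the ratio of CCT3 to CCT5 was 2.09 and 2.11 with K178R, 2.45 and 2.49 with wild type TEAD4 and 2.04 and 2.15 in control. TCP1 shares 397 exonic bases with ACAT2 on the opposite strand.

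The mitochondrial chaperone genes HSPD1, HSPE1 and HSPA9 were lower with wild type TEAD4 and were not called with K178R. HSPD1 encodes HSP60, which folds imported proteins in the matrix, and HSPE1 its lid HSP10. The genes lie head to head on chromosome 2, HSPD1 on the minus strand from 197486581 to 197516737 and HSPE1 on the plus strand, from 197499994 to 197503457. Their RefSeq starts are 105 bases apart, and the stretch between them is shown because both genes begin from it. It is given on the plus strand at chr2:197500265-197500388 (GRCh38.p14), the 104 bases between the starts in capitals and 10 transcribed bases on either side in lower case.
HSPD1 and HSPE1: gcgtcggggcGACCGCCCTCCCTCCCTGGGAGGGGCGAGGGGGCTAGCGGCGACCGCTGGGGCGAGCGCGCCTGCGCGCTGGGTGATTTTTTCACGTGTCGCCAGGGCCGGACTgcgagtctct
Neither of the pairs of heat shock units was found in the RefSeq promoter window of either gene.

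HSPD1 read 677 and 683 FPKM with K178R, 637 and 636 FPKM with wild type TEAD4 and 683 and 690.2 FPKM in control. The wild type libraries were lowest, and HSPD1 fell in that line (log2 -0.11, SE 0.02, adjusted p = 0.00326), with no call in K178R (log2 -0.01, adjusted p = 0.633). HSPE1 read 502 and 479 FPKM with K178R, 474 and 428 FPKM with wild type TEAD4 and 512 and 529 FPKM in control. It was called lower with wild type TEAD4 (log2 -0.21, SE 0.05, adjusted p = 0.00941), a call that ended without control library 2 (adjusted p = 0.0624). HSPA9, mortalin, the HSP70 of the matrix and of protein import, read 173 and 172 FPKM with K178R, 159.5 and 156 FPKM with wild type TEAD4 and 173 and 174 FPKM in control. It fell with wild type TEAD4 (log2 -0.13, SE 0.02, adjusted p = 0.00265) and was not called with K178R (log2 -0.01). Over 8 mitochondrial members tested, 0 were higher and 1 lower with K178R, 12.5% beside 11.1% lower of all tested genes. With wild type TEAD4, 0 were higher and 4 lower, 50% beside 12.2% lower of all tested genes. The last of these 4 was DNAJC11 (log2 -0.11, limma adjusted p = 0.014), a protein of the mitochondrial outer membrane. The DNAJC11 call ended without wild type library 2 or control library 2 and with the control libraries averaged (adjusted p up to 0.0697). HSPD1 and HSPE1 share 281 exonic bases on opposite strands, and GENCODE annotates 17 and 26 pseudogenes of them.

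**Figure D3:**
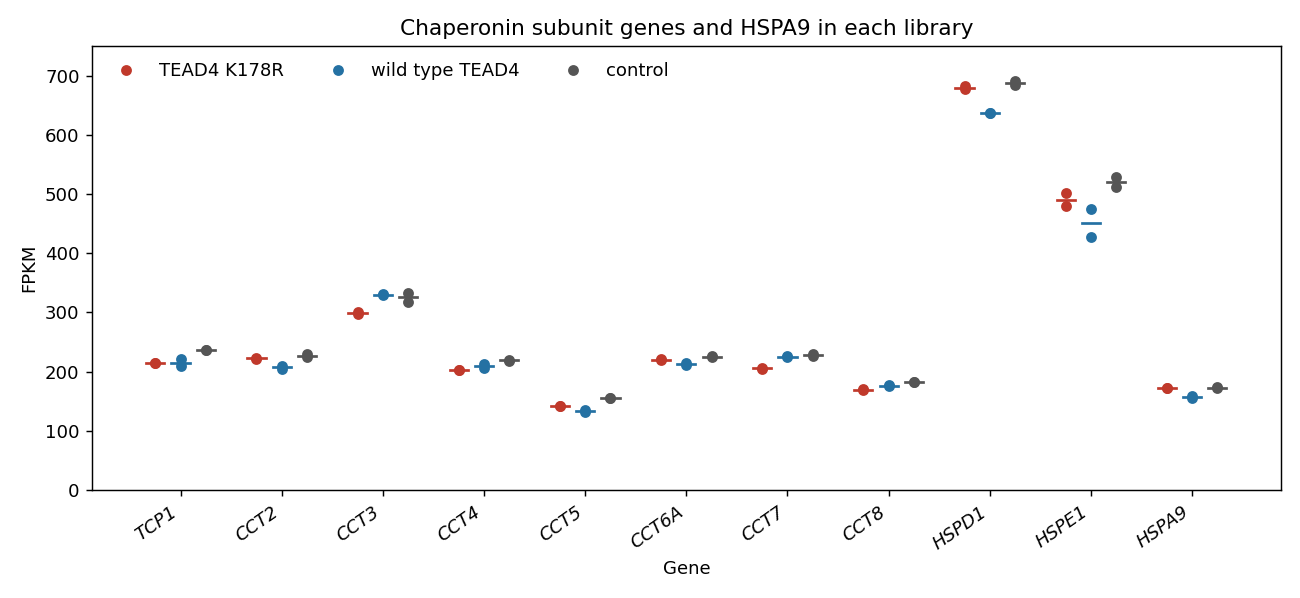
FPKM of the 8 CCT subunit genes, HSPD1, HSPE1 and HSPA9 in each library (vertical axis), with TEAD4 K178R, wild type TEAD4 and control from left to right within each gene, points for libraries and bars for the mean of 2. Each CCT subunit has its K178R points below its control points (not so after TPM rescaling for CCT2 and CCT6A, at log2 0.02 and 0.01), and for HSPD1 and HSPA9 the wild type points lie below the other 4.

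The second question was how the mutant differed from the unchanged protein. Compared with wild type TEAD4, 9 members were higher and 24 lower in the K178R line, 53.2% of those tested. The background was 44.9% of all tested genes, with 10.4% higher and 34.5% lower. The median log2 change was -0.08 for members and -0.08 for all genes. After median-of-ratios scaling 17 members were higher and 15 lower, beside 2171 higher and 2598 lower of all genes. After TPM rescaling 18 members were higher and 14 lower, beside 2268 higher and 2484 lower of all genes. The K178R line also held less TEAD4 RNA, and the part of that difference in these results was not tested. Of the members, 5 were higher and 12 lower in all 14 alternatives as in the main test.

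How many of all tested genes kept their call in all 14 alternatives is not given here, so these 2 counts have no background. Among the 12 members lower in all of them, HSPB8 and HSPA1B had the largest differences. HSPA1B was 0.561 times its wild type level in K178R (log2 -0.82, SE 0.03, adjusted p = 1.21e-05) and HSPB8 0.456 times (log2 -0.83, SE 0.11, adjusted p = 0.00115). DNAJB4 (log2 -0.60), HSPA4L (log2 -0.51), HSPB11 (log2 -0.50), HSPA8 (log2 -0.41), HSPA2 (log2 -0.36), DNAJC6 (log2 -0.35) and DNAJB1 (log2 -0.33) followed. The others were DNAJC22, DNAJA1 and DNAJA3, with log2 changes of -0.24, -0.19 and -0.18. In each of these the K178R libraries were both below the wild type libraries. Higher with K178R in all 14 alternatives were DNAJC9 (log2 0.29, SE 0.04, adjusted p = 0.000954), DNAJC2 (log2 0.26), HSP90AB1 (log2 0.14), HSPA9 (log2 0.13) and HSPD1 (log2 0.09). HSPB1 was also called higher (log2 0.19, adjusted p = 0.0241), a call that ended without K178R library 2 (adjusted p = 0.13) or without wild type library 1 (adjusted p = 0.107), and with no filter on low values (adjusted p = 0.0821). HSP90AA1 was not called (log2 0.01, adjusted p = 0.828), and passed after median-of-ratios and TPM scaling.

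Within CCT, K178R was above wild type TEAD4 for CCT2 (log2 0.10) and CCT5 (log2 0.09) and below it for CCT3 (log2 -0.14) and CCT7 (log2 -0.13). The calls of CCT3 and CCT7 ended after median-of-ratios scaling (adjusted p = 0.123 and 0.119) and after TPM rescaling, and those of CCT2 and CCT5 without K178R library 2 (adjusted p = 0.0575 and 0.0667). The CCT5 call also ended without K178R library 1 or wild type library 2 (adjusted p up to 0.0714). Members lower in K178R whose calls also ended under that scaling included DNAJB6 (log2 -0.19), DNAJC5 (log2 -0.13) and HSPA12A (log2 -0.23), the last 2 also without K178R library 2 (adjusted p = 0.0972 for DNAJC5 and 0.0912 for HSPA12A) or wild type library 2 (0.1 and 0.0893). Less firm were DNAJC4 (log2 -0.39), DNAJB2 (log2 -0.37), DNAJC12 (log2 -0.33) and DNAJB5 (log2 -0.28), each at under 7 FPKM in all libraries and each without a call when some single library was left out. Those libraries were K178R library 2 or either wild type or control library for DNAJC4, K178R library 2 or wild type library 1 for DNAJB2, K178R library 1 or either wild type library for DNAJC12, and any K178R or wild type library for DNAJB5 (adjusted p up to 0.215). HSPA14, a ribosome-associated HSP70, averaged 12.2 FPKM with K178R and 11.2 FPKM with wild type TEAD4 (log2 0.12, adjusted p = 0.0474), and lost its call in 10 of 14 alternatives.

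**Figure D4:**
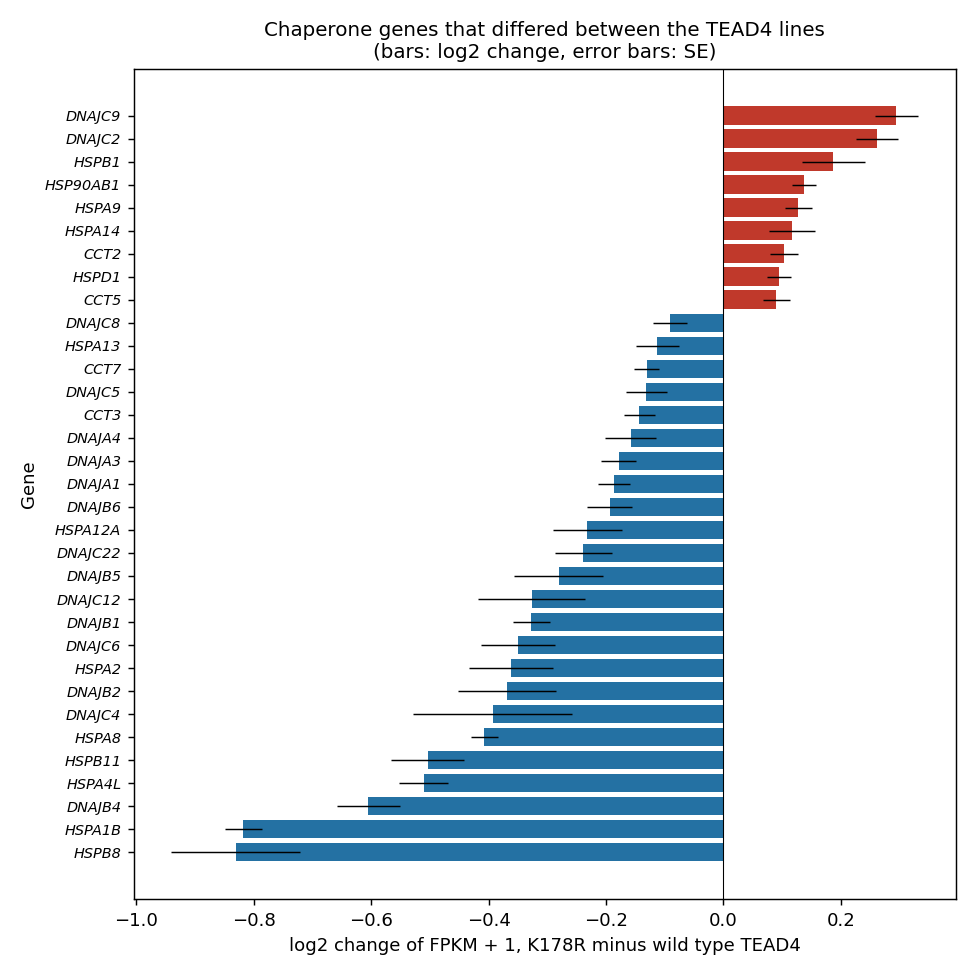
Log2 change of FPKM + 1 with its standard error, TEAD4 K178R minus wild type TEAD4 (horizontal axis), for the 33 chaperone genes called in that comparison (rows), bars to the right being higher in K178R. The 9 genes on the right lie between DNAJC9 at 0.29 and CCT5 at 0.09, and the 24 on the left reach -0.83 for HSPB8.

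Genes that work with these chaperones were counted in lists that are not members. AHSA1, CHORDC1, FKBP4, STIP1 and BAG3 stand both among the heat-inducible genes and in a co-chaperone list. They are counted in each, so these lists are not independent, and all but BAG3 were called lower with K178R. Of all tested genes, 11.7% were called higher and 11.1% lower with K178R. With wild type TEAD4 these shares were 37.6% and 12.2%, and 25.7% and 21.1% after median-of-ratios scaling. Of 11 tested heat-inducible genes outside the chaperone families, 0 were higher and 6 lower with K178R, and 5 higher and 2 lower with wild type TEAD4, and after median-of-ratios scaling 3 higher and 5 lower. UBB, a polyubiquitin gene, read 217 and 219.7 FPKM with K178R, 291 and 302 FPKM with wild type TEAD4 and 262 and 257 FPKM in control, with no overlap. It fell with K178R (log2 -0.25, adjusted p = 0.000764) and rose with wild type TEAD4 (log2 0.19, adjusted p = 0.00108). BAG3, the HSP70 co-chaperone that binds HSPB8, read 24.9 and 27.3 FPKM with K178R, 35.2 and 34.6 FPKM with wild type TEAD4 and 26.4 and 27.7 FPKM in control, and rose with wild type TEAD4 (log2 0.36, adjusted p = 0.00093). Of 13 tested chaperone members listed as heat-inducible, 0 were higher and 7 lower with K178R, and 5 higher and 5 lower with wild type TEAD4. After median-of-ratios scaling the wild type counts were 4 higher and 7 lower. Those tested were HSP90AA1, HSP90AB1, HSPA1A, HSPA1B, HSPA4L, HSPA8, HSPH1, HSPB1, HSPD1, HSPE1, DNAJA1, DNAJB1 and DNAJB4. This set includes HSPA8 and HSP90AB1, described above as constitutive, and both were called in both lines.

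Of 19 HSP90 co-chaperone genes, 0 were higher and 6 lower with K178R, and 3 higher and 4 lower with wild type TEAD4, and after median-of-ratios scaling 1 higher and 10 lower. FKBP4, an immunophilin that serves steroid receptors, read 52.8 and 53.1 FPKM with K178R, 53.0 and 53.1 FPKM with wild type TEAD4 and 64.9 and 64.8 FPKM in control, and fell in both lines (log2 -0.29, adjusted p = 0.000324 with K178R, and log2 -0.28, adjusted p = 0.000163 with wild type TEAD4). The TEAD4 libraries all lay below control. AHSA1, which activates the HSP90 ATPase, was called lower in both lines too (log2 -0.22 with K178R and -0.11 with wild type TEAD4), and its wild type call ended with the control libraries averaged and without wild type library 2 or control library 2 (adjusted p up to 0.0639). CHORDC1, another HSP90 partner, read 25.2 and 25.1 FPKM with K178R, 30.8 and 30.9 FPKM with wild type TEAD4 and 32.4 and 32.0 FPKM in control, and was called lower with K178R (log2 -0.34, adjusted p = 0.00027). Of 12 HSP70 co-chaperone genes, 2 were higher and 1 lower with K178R, and 4 higher and 0 lower with wild type TEAD4, and after median-of-ratios scaling 2 higher and 1 lower. SIL1, a nucleotide exchange factor of the endoplasmic reticulum, was called higher in both lines (log2 0.24 with K178R and 0.47 with wild type TEAD4), and its K178R call ended in 7 of 14 alternatives, among them leaving out either K178R or either control library (adjusted p up to 0.192).

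HSF1 itself was not called in any comparison, at 28.1 and 30.4 FPKM with K178R, 32.0 and 31.0 FPKM with wild type TEAD4 and 32.5 and 31.1 FPKM in control. The list with HSF1 had 4 tested genes, HSF1, HSF2, HSF4 and HSBP1. HSBP1 is not a heat shock factor and encodes a protein that binds HSF1. Of the 4, 0 were called with K178R. Higher with wild type TEAD4 were HSBP1 (log2 0.25) and, of the factors, HSF2 (log2 0.18). The HSF2 call ended in 7 of 14 alternatives, among them median-of-ratios scaling and leaving out wild type library 2 or either control library. Of 9 prefoldin and CCT cofactor genes, 0 were called with K178R and 1 was higher with wild type TEAD4, PFDN5 (log2 0.25). Of 13 genes of mitochondrial import and quality control, 1 was higher and 1 lower with K178R, and 3 higher and 4 lower with wild type TEAD4, and after median-of-ratios scaling 1 higher and 7 lower. TRAP1, the mitochondrial HSP90, was called lower in both lines (log2 -0.13 with K178R and -0.16 with wild type TEAD4). Its wild type call held in all 14 alternatives. The K178R call of TRAP1 ended after TPM rescaling, with the control libraries averaged and without K178R library 1 or control library 2. CLPB, a disaggregase, rose with wild type TEAD4 (log2 0.35). The endoplasmic reticulum genes that the rule left out, taken with HSP90B1, gave 3 higher and 0 lower of 4 with K178R and 3 higher and 1 lower with wild type TEAD4. Against wild type TEAD4, K178R had 0 higher and 8 lower of the 11 heat-inducible genes, 1 higher and 7 lower of the HSP90 co-chaperones, 0 higher and 4 lower of the HSP70 co-chaperones and 2 higher and 2 lower of the mitochondrial genes. After median-of-ratios scaling the counts were 2 and 5, 4 and 4, 3 and 2, and 5 and 2, higher and lower in turn. Of all tested genes 10.4% were higher and 34.5% lower in the main test, and 19% and 22.7% after that scaling. The largest called differences over these lists were those of UBB (log2 -0.44), DNAJB9 (log2 -0.44), BAG3 (log2 -0.41), HSF4 (log2 -0.37), IER5 (log2 -0.34) and PIH1D1 (log2 -0.33), and in the other direction FKBP5 (log2 0.24). The call of HSF4 ended without either K178R library, without wild type library 2 and with no filter on low values (adjusted p up to 0.106), and those of the other 5 lower genes held in all 14 alternatives.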

How the data were processed

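RNA sequencing libraries of 3 HCT116 lines, 2 per line, were grouped by their titles. The values are FPKM, which the authors deposited in a separate table for every library, with 20030 gene rows each. Bowtie 0.12.2 and the build hg18 are named, without their role, in the submitters' processing notes. How FPKM was computed, with which annotation, strand setting and treatment of reads matching several genes, is not given in the sources used here. Sequencing depth is unknown, so no counting interval is given. The 4 rows with a repeated identifier, among 27 turned into dates, were left out. Coordinates are from GENCODE release 29 on GRCh38, which gave 74 of the 75 members.

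A gene was tested if 2 or more libraries reached 0.5 FPKM, which left 11445 genes, as log2(FPKM + 1). The test was limma 3.58.1 (R 4.3.3) with trend, on group means of all 6 libraries without covariates, two-sided, with Benjamini-Hochberg adjustment over all tested genes and a threshold of 0.05. The script was tested on simulated data. There were 14 alternatives. Median-of-ratios scaling used genes at 1 FPKM or more in every library. The others were TPM rescaling, a pseudocount of 0.1, 2 other filters, a replicate block, only the 4 libraries compared, control libraries averaged, and leaving out each of 6 libraries. Named were a fixed core of members, up to 8 with the largest changes per direction and comparison, those with opposite signs in the TEAD4 lines that differed between them, and up to 3 called genes of each list of related genes per comparison. DNAJA2, DNAJC11, UBB, IER5, DNAJB9 and HSF1, outside that rule, were named after their values were seen. Members and lists were chosen with earlier results of these data known.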

Additional observations from a re-analysis of the deposited data

Results flagged for a closer look

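For 3 chaperone genes the K178R and wild type lines were called in opposite directions against control. A call between the 2 TEAD4 lines was part of the rule that picked them, so their difference is no separate support. The share of all tested genes meeting this rule is not given here. HSPA1B differed by log2 -0.82, K178R against wild type TEAD4 (K178R below control, wild type TEAD4 above it, 2 of 2 libraries each). HSPA8 differed by log2 -0.41 and DNAJB1 by log2 -0.33, likewise in 2 of 2 libraries each. The difference between the TEAD4 lines was called in all 14 alternatives for each of the 3. Against control, the K178R call of HSPA8 ended in 7 alternatives and that of DNAJB1 in 3, and the wild type call of DNAJB1 in 1.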

How the results depend on the processing

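Same-numbered libraries did not deviate together (correlations of their deviations -0.031, 0.010 and 0.032 over 9952 genes), so the replicate numbers were not taken to pair them. With the replicate block, chaperone genes called were 3 higher and 17 lower (K178R against control), 16 and 13 (wild type TEAD4 against control) and 9 and 23 (K178R against wild type TEAD4). Among named genes, the block ended the calls of DNAJA3 (adjusted p = 0.0549) and SIL1 in K178R against control and of HSPA14 (0.0693) in K178R against wild type TEAD4, and DNAJC22 passed in K178R against control. Calls in K178R against control were fewer with 1 library left out at a time, 0 to 2 higher and 8 to 17 lower among chaperone genes and 732 to 1266 higher and 635 to 1229 lower among all genes, and with the control libraries averaged, 0 higher and 9 lower among chaperone genes and 658 higher and 577 lower among all genes. The lower values of these ranges came from leaving out a K178R or control library, which leaves fewer samples. TPM rescaling gave 4 higher and 10 lower chaperone genes there, with 2004 genes higher and 818 lower in all. Median-of-ratios scaling gave 10 higher and 20 lower in wild type TEAD4 against control, with 2416 genes lower in all. In K178R against wild type TEAD4 it gave 17 higher and 15 lower, with 2171 genes higher and 2598 lower in all, and TPM 18 higher and 14 lower, with 2268 and 2484 in all. Outside the members, STIP1 was called lower in K178R against wild type TEAD4. Its log2 change lay between -0.089 and 0.008 over the alternatives, and its call ended under median-of-ratios and TPM scaling. Among named members, changes of sign, as log2 changes, concerned genes not called in the main test. Of these, TCP1 under TPM in K178R against wild type TEAD4 passed the threshold (0.085, limma adjusted p = 0.0355). In K178R against control, TPM turned HSPA9 (0.042), HSPA4 (0.009), HSPD1 (0.033), CCT2 (0.018), CCT6A (0.013), DNAJB4 (0.030) and DNAJB6 (0.038). With 1 library left out at a time, DNAJB4 lay between -0.071 and 0.043, DNAJB5 between -0.180 and 0.011, DNAJB6 between -0.041 and 0.023, HSPA12A between -0.090 and 0.009 and HSPB8 between -0.261 and 0.012. In wild type TEAD4 against control, median-of-ratios scaling turned HSPA4 (-0.079), CCT3 (-0.073), DNAJA3 (-0.025), DNAJC5 (-0.058) and HSPB11 (-0.082), and TPM turned HSPA4 (-0.033), CCT3 (-0.027), DNAJC5 (-0.014) and HSPB11 (-0.037). There, with 1 library left out at a time, HSPA4 lay between -0.019 and 0.043, CCT3 between -0.014 and 0.051 and HSPB11 between -0.089 and 0.104. In K178R against wild type TEAD4, median-of-ratios scaling turned HSPA4 (0.034), HSPH1 (0.025), TCP1 (0.077), CCT4 (0.038) and CCT8 (0.032), and TPM turned HSPA4 (0.042), HSPH1 (0.032), CCT4 (0.045) and CCT8 (0.039). With 1 library left out at a time, HSP90AA1 lay between -0.012 and 0.024 and TCP1 between -0.050 and 0.033. The cause was not tested. Of the other alternative values of named members, 207 of called and 263 of uncalled ones kept their side of the threshold in K178R against control, 326 and 169 in wild type TEAD4 against control, and 339 and 104 in K178R against wild type TEAD4. In the same order of comparisons, 59, 24 and 52 values of called members lost the call, and 1, 12 and 8 of uncalled members gained one without changing sign. Depth in reads is unknown, and 2 libraries per line limit the precision.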
